A study of Mus musculus with 12 samples.

Results

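The locus of Ptx3 and Veph1 on mouse chromosome 3 was examined peak by peak in maps of acetylated histone H3 lysine 27 (H3K27ac), a mark of active promoters and enhancers. Its members are the pentraxin gene Ptx3 and the gene Veph1, in which Ptx3 lies on the opposite strand, 2 of the 21887 protein-coding genes of the RefSeq table used here. The window was the Veph1 gene body plus 100 kb on each side, chr3:65953558-66396974 (mm10). Both genes were chosen by their covered H3K27ac length, which was longer in the mutant in the same 6 libraries, so that difference is described here and not tested. The mutant embryos (cKO) had the genotype Emx1Ires-Cre; Prdm16flox/flox. The control embryos (WT) were Prdm16 flox/flox and carried no Cre, so the floxed allele was present in all samples. All tissue was whole cerebral cortex taken at E15.5, with 3 H3K27ac libraries per genotype. Emx1 drives Cre in dorsal forebrain progenitors and their progeny, so interneurons, blood vessels, microglia and meninges in the same lysate largely keep Prdm16. The 6 input libraries were not analysed here. Nothing in the labels ties a replicate to its own embryo or litter, and the spread behind each SD and p-value may be technical.

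PTX3 is a secreted long pentraxin, a pattern-recognition protein of innate immunity that is made on demand by many cell types, binds complement C1q and helps to assemble hyaluronan-rich matrix. VEPH1 is an intracellular protein with a pleckstrin homology domain, named for its expression in the ventricular zone, the layer of the embryonic brain where neural progenitors divide. Its Drosophila counterpart, Melted, acts in insulin, FoxO and Tor signalling, and human VEPH1 has been reported to restrain TGF-beta signalling in cultured cells. PRDM16 is a zinc-finger transcriptional regulator that acts on chromatin in neural progenitors. H3K27ac usually forms a compact peak around a transcription start, while over some genes it spreads along the transcribed body.

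Both promoters lay at the edge of the peaks described below, so the 250 bases before each start are shown 5′ to 3′ on the strand of the gene (RefSeq, GRCm38.p6, the assembly behind mm10). Capitals mark the bases under a peak in all 6 libraries. The Ptx3 promoter is chr3:66219637-66219886 on the plus strand, and the Veph1 promoter is chr3:66296838-66297087 on the minus strand.
Ptx3 promoter: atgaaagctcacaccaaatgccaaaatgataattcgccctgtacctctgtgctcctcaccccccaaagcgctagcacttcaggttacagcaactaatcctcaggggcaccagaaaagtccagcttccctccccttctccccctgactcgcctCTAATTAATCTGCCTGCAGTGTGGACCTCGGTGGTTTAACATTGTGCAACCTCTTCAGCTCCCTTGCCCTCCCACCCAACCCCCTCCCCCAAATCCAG
Veph1 promoter: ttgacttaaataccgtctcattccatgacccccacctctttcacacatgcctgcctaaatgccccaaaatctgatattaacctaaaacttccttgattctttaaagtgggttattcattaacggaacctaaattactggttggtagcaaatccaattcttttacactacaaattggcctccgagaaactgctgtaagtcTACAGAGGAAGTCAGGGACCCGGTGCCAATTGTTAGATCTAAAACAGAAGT
The Ptx3 stretch was covered over all 250 bases in every cKO library, against 245, 224 and 98 bases in WT replicates 1, 2 and 3. The Veph1 stretch was also covered over all 250 bases in every cKO library, against 250, 225 and 51 bases in the WT libraries. The capitals therefore cover the last 98 bases before the Ptx3 start and the last 51 before the Veph1 start, which are the stretches that WT replicate 3 covered. A homeodomain core, TAATTA, was found once before Ptx3, starting 97 bases before the start and thus inside the capitals, and 4.84% of the 32851 promoters in the RefSeq table hold it on either strand. The CCAAT box, CCAAT, was found 3 times before Veph1 on the 2 strands together and not before Ptx3 (33.8% of promoters). Neither stretch held a TATA box (TATAAA, 12.4% of promoters), a GC box (GGGCGG, 32.7%) or an AP-1 motif (TGANTCA, 6.75%), each searched on both strands.

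The deposited lists are the only data, so all values are numbers, positions and lengths of peaks, and sequencing depth is unknown. The cKO lists held 55015 to 59209 peaks and the WT lists 48168 to 75563. Lengths are given as deposited and, where marked as scaled, after multiplication by a factor per library (0.994 to 1.12 in cKO, 0.819 to 1.30 in WT) that gives all libraries the same sum over gene windows. Library identifiers put replicates 1 and 2 of both genotypes in one set and replicate 3 of both in another. At Prdm16 itself the scaled covered length was 94198, 93566 and 97995 bp in cKO and 82483, 79136 and 77832 bp in WT (log2 change 0.25 ± 0.09, SE, limma adjusted p = 0.377), and length under peaks over the gene does not check the deletion. Of 18 marker genes of the dorsal cortex, 17 had a peak within 2 kb of a gene end in every cKO library and 17 or 18 in the WT libraries.

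Covered length of a gene counted every base that lay under a peak, from 20 kb before the gene body to 20 kb after it. For Ptx3 it was 5995, 5815 and 6593 bp in cKO replicates 1, 2 and 3, and 3051, 2111 and 1787 bp in the WT replicates. Every cKO library was above every WT library. After scaling the mean was 6410 ± 855 bp in cKO and 2256 ± 497 bp in WT (SD, n = 3 each), a ratio of 2.84. The fitted change on the log2 scale of covered length plus 500 bp was 1.34 ± 0.14 (SE, limma), the fourth highest of the 15359 genes fitted. For Veph1, whose window contains that of Ptx3, covered length was 23884, 21153 and 20350 bp in cKO and 16819, 15560 and 9337 bp in WT, again with no overlap. Its scaled mean was 22647 ± 1185 bp in cKO and 13287 ± 1494 bp in WT (SD, n = 3 each), with a fitted log2 change of 0.75 ± 0.11 (SE, limma). Scaled lengths over gene windows that were longer in cKO without overlap made up 6.71% of all genes fitted and shorter ones 5.85%. The limma call that led to these 2 genes (Benjamini-Hochberg adjusted p below 0.05) was given to 0.28% of genes fitted, 0.124% in the longer direction and 0.156% in the shorter. Of 19 alternative settings, 12 kept the call for Ptx3 and 6 for Veph1. Ptx3 lost it without cKO replicate 3, WT replicate 2 or WT replicate 3, and Veph1 without any 1 library other than cKO replicate 2. Whether more cells carried the mark or each cell carried more of it cannot be told apart in whole tissue. Within the first set of libraries the log2 change was 1.27 for Ptx3 and 0.69 for Veph1, and between the replicate 3 libraries it was 1.45 and 0.88.

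A description that needs no scaling, but uses the same peak lengths that chose both genes, is the share of the window's own covered bases. The peak over Ptx3 held 17.5%, 19.0% and 22.3% of them in cKO and 11.1%, 8.01% and 10.4% in WT. Veph1 plus 20 kb held 69.6%, 69.1% and 68.8% in cKO and 61.3%, 59.0% and 54.3% in WT. No cKO library overlapped a WT library for either gene, but Veph1 plus 20 kb includes the peak over Ptx3. The Veph1 body outside the Ptx3 window and beyond 2 kb of the Veph1 start held 39.2%, 39.1% and 34.6% in cKO. In WT that part held 37.1%, 37.6% and 29.3%, so there the genotypes overlapped.

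**Figure D1:**
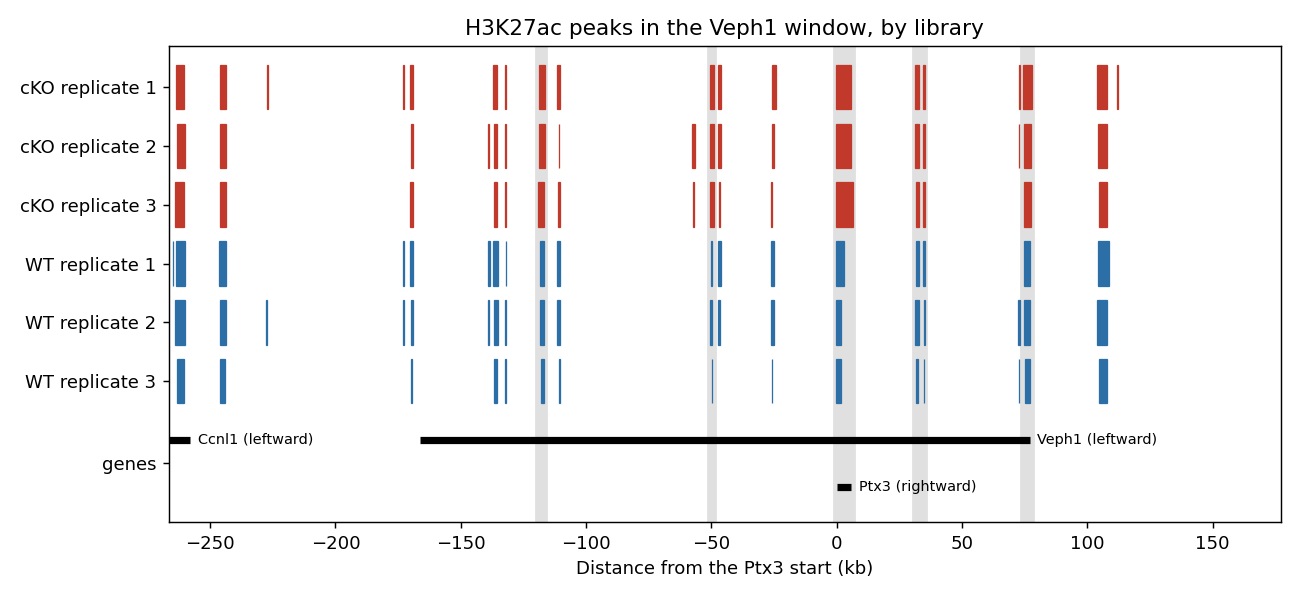
H3K27ac peaks (boxes, outlined so that short peaks stay visible) in each of the 3 cKO and 3 WT libraries across the Veph1 window, plotted by distance in kb from the Ptx3 start, with gene bodies below. Grey bands mark the 6 sites that were longer after scaling in every cKO library than in any WT library. Peaks are drawn as deposited, on which scale the site at 32 kb overlaps between genotypes. Of the 6, the sites at 32 and 35 kb share a band, and all overlap the Veph1 body.

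Merging the peaks of the 6 lists where they overlapped or touched gave 22 sites in the window, of 85907 in the genome. The window held 16 to 19 peaks in the cKO libraries and 15 to 19 in the WT libraries, so the number of peaks was about the same and the difference lay in their length. Of the 22 sites, 14 had a peak in all 6 libraries, 6 in 2 to 5 libraries and 2 in 1 library. At 6 sites (27.3%) the shortest cKO length exceeded the longest WT length after scaling, against a background of 5.13% of all sites in the genome, and at 0 sites was it the other way (background 4.66%). All 6 belonged to the 14 sites with a peak in every library (42.9%), where the background was 7.65% longer and 5.58% shorter. They are the sites whose length chose the locus, so nothing is read from these shares. All 6 overlapped the Veph1 body, 1 of them at Ptx3 and 5 elsewhere in Veph1.

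The site at the Ptx3 start, chr3:66219550-66226214, was a single peak in every library. Its lengths in the 6 libraries are those given above for the Ptx3 window, since the 20 kb on either side of Ptx3 held no other peak. The peak began close to the same place in both genotypes, 337, 280 and 265 bp before the start in cKO and 245, 224 and 98 bp before it in WT. It differed at its other end. In cKO it ran 5657, 5534 and 6327 bp past the start, while in WT it stopped after 2805, 1886 and 1688 bp. Since the Ptx3 body is 5920 bp long, the cKO peak ended 262 and 385 bp short of the gene end in replicates 1 and 2 and passed it by 408 bp in replicate 3, whereas the WT peaks ended 3114, 4033 and 4231 bp short of it. The share of the Ptx3 body under the peak was 95.6%, 93.5% and 100% in cKO, against 47.4%, 31.9% and 28.5% in WT. A peak confined to the first part of the gene in WT thus covered nearly the whole transcribed body in cKO. With 4154 bp of scaled length added, this site ranked 1 among the 85907 sites of the genome by cKO minus WT length.

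**Figure D2:**
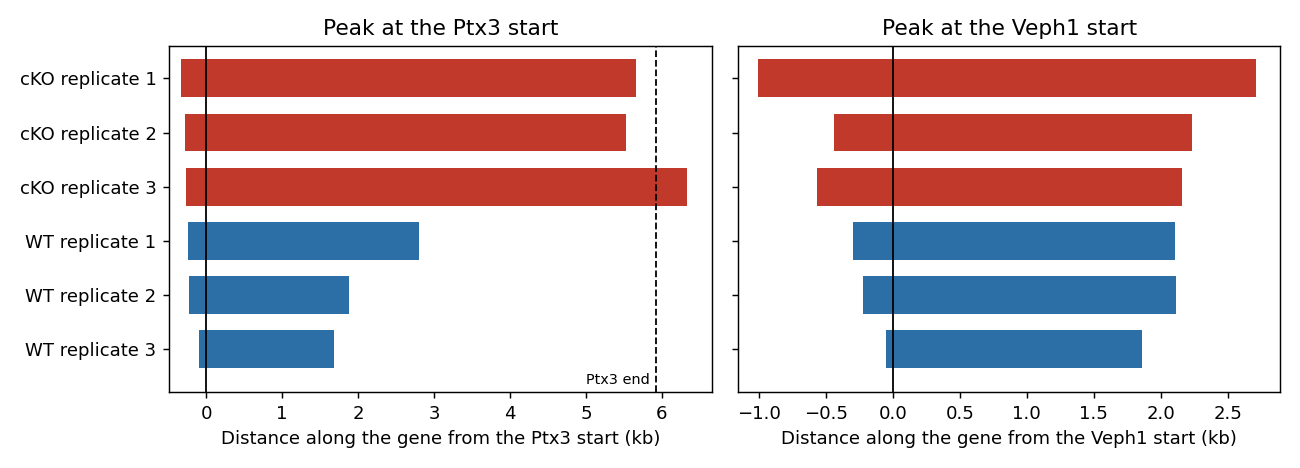
Extent of the peak at the Ptx3 start (left) and at the Veph1 start (right) in each of the 3 cKO and 3 WT libraries, in kb along the strand of each gene, with the start as a solid line and the Ptx3 end as a dashed line. The cKO peaks at Ptx3 end 5534 to 6327 bp past the start, close to the gene end, and the WT peaks end 1688 to 2805 bp past it.

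The Veph1 start lies 76950 bp from that of Ptx3, and the site there, chr3:66294129-66297844, measured 3716, 2669 and 2728 bp in cKO and 2402, 2340 and 1914 bp in WT. The groups did not overlap, although the shortest cKO peak, in replicate 2, was close in length to the longest WT peak, in replicate 1. Scaled means were 3150 ± 503 bp in cKO and 2181 ± 288 bp in WT (SD, n = 3 each). As deposited, the peak was longer on both sides. It reached 1007, 437 and 569 bp before the Veph1 start in cKO and 294, 225 and 51 bp in WT. Past the start it covered 2708, 2231 and 2158 bp in cKO and 2107, 2114 and 1862 bp in WT. After scaling, the length within 2 kb of the start was 2989, 2464 and 2883 bp in cKO and 2043, 1824 and 2488 bp in WT, where cKO replicate 2 lay just below WT replicate 3, so the groups overlapped. Both this peak and the one over Ptx3 stayed within a few kb of their starts. The cKO peak over Ptx3 covered nearly all of a gene 5920 bp long, and this one only the first part of a gene 243417 bp long.

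The remaining 4 longer sites lay within the Veph1 body away from both starts, and are named by the distance of their centre from the Ptx3 start. The 50-kb upstream site, chr3:66169336-66170964, measured 1593, 1629 and 1532 bp in cKO and 275, 617 and 163 bp in WT. The cKO libraries lay close together and far above WT, with scaled means of 1649 ± 68.0 bp in cKO and 321 ± 161 bp in WT (SD, n = 3 each). This ratio of 5.14 ranked 1 among the 39882 sites of the genome with a peak in all 6 libraries, and the site at Ptx3 ranked 41 by the same measure. The 50-kb site is in that set only through a weak peak in WT replicate 2. Its −log10 q from the peak caller was 1.43, where the lowest of that library's list was 1.33. The 118-kb upstream site, chr3:66100735-66103385, measured 2237, 2243 and 2584 bp in cKO and 1634, 1648 and 1275 bp in WT. The groups did not overlap, and its scaled means were 2463 ± 378 bp in cKO and 1488 ± 156 bp in WT (SD, n = 3 each).

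On the other side of Ptx3, between it and the Veph1 start, lay a pair of smaller sites. The 32-kb downstream site, chr3:66251156-66252905, measured 1750, 1597 and 1189 bp in cKO and 1019, 1460 and 739 bp in WT. As deposited the groups overlapped, since cKO replicate 3 was shorter than WT replicate 2. After scaling they did not, with means of 1562 ± 207 bp in cKO and 1021 ± 154 bp in WT (SD, n = 3 each). The 35-kb downstream site, chr3:66254351-66255277, measured 787, 911 and 686 bp in cKO and 518, 435 and 180 bp in WT, without overlap on either scale. As deposited, 5 of the 22 sites were longer in cKO without overlap, against a background of 2.32% longer and 4.73% shorter, and 0 of the 22 were shorter.

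**Figure D3:**
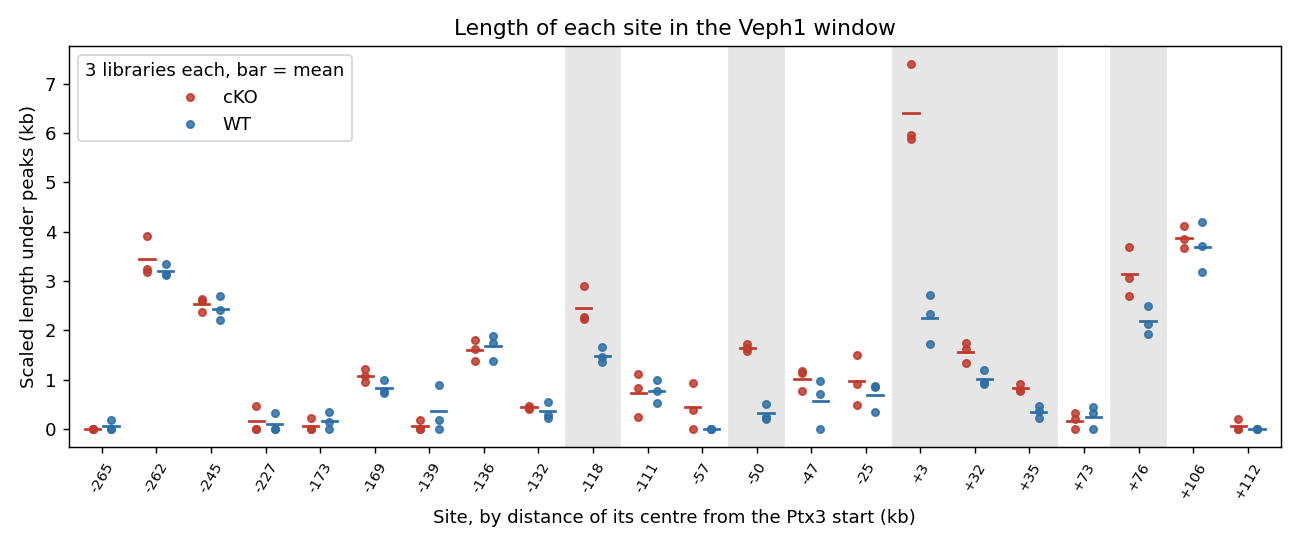
Scaled length under peaks in kb at each of the 22 sites, ordered along the chromosome by distance from the Ptx3 start, with 1 point per library, cKO left of WT, and a bar at the mean of 3 libraries. Grey bands mark the 6 sites without overlap, of which the site at +3 kb, over Ptx3, has a mean of 6410 bp in cKO and 2256 bp in WT.

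At the other 16 sites the genotypes overlapped, and together they contributed 14.9% of the net length added in the window. The promoter site of Ccnl1, a cyclin gene at the low end of the window, measured 3205, 3215 and 3482 bp in cKO and 3538, 3815 and 2571 bp in WT. The site 106 kb beyond the Ptx3 start, outside any gene and the longest WT site of the window, measured 4144, 3634 and 3427 bp in cKO and 4178, 3888 and 3222 bp in WT. The site 245 kb before the Ptx3 start, between Ccnl1 and Veph1, measured 2386, 2601 and 2309 bp in cKO and 2722, 2693 and 2072 bp in WT. The 3 longest sites outside the Veph1 body thus overlapped between genotypes, each with a WT library longer than all cKO libraries as deposited. Within the Veph1 body 8 sites overlapped between genotypes. Among these, the site 57 kb upstream of Ptx3 had a peak of 918 bp in cKO replicate 2 and of 353 bp in cKO replicate 3, and none in the other 4 libraries. Its neighbour 47 kb upstream measured 1175, 1123 and 681 bp in cKO and 1105, 857 and 0 bp in WT. The site 136 kb upstream measured 1815, 1356 and 1443 bp in cKO and 2130, 1680 and 1350 bp in WT. The site 25 kb upstream, the nearest to Ptx3 on that side, measured 1521, 895 and 442 bp in cKO and 990, 1035 and 263 bp in WT. Sites at which the genotypes overlapped thus lay between the longer ones. The other 4 overlapping sites of the body lay 139, 132 and 111 kb upstream and 73 kb downstream, with lengths of 0 to 1118 bp in cKO and 0 to 1127 bp in WT. Outside the body, the site 169 kb upstream measured 1224, 942 and 967 bp in cKO and 1123, 889 and 594 bp in WT, and the other 4 were peaks of 169 to 472 bp, in 1 to 3 libraries each. At the window's edges, the nearest site inside the low end was a peak of 196 bp in WT replicate 1 alone, and the nearest inside the high end one of 202 bp in cKO replicate 1 alone. The nearest outside the low end averaged 783 bp in cKO and 503 bp in WT after scaling, and the nearest outside the high end, 516 bp beyond it, averaged 1513 bp in cKO and 1523 bp in WT.

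The added length was then divided between Ptx3 and the rest of Veph1. Over Veph1 plus 20 kb, the scaled length added in cKO was 9360 bp. Of this, 44.4% lay within 20 kb of Ptx3, all of it in the peak over Ptx3 itself. A further 48.8% lay in the Veph1 body outside the Ptx3 window, and 6.78% in the 20 kb on either side of Veph1. The Veph1 body on the side towards its 3′ end, which holds the 50-kb and 118-kb sites, had 9371 ± 385 bp in cKO and 6223 ± 1292 bp in WT (scaled, SD, n = 3 each). The part between the Ptx3 window and the Veph1 end at its promoter had 5159 ± 493 bp in cKO and 3735 ± 329 bp in WT. Over the whole window the site at Ptx3 made up 41.9% of the net gain and the other 5 longer sites 43.2%. Both flanks of 100 kb together made up 12.1%, and part of the peak at the Veph1 start extends into one of them. By length, the longer covered length of Veph1 was thus not a count of the Ptx3 peak alone. As a share of the window's covered bases, the rest of the Veph1 body overlapped between genotypes, as given above. The site at Ptx3 added the most, and 16 of the 22 sites had a higher scaled mean in cKO. Among sites that overlapped between genotypes, those 47 and 57 kb upstream added 460 and 441 bp, close to the 474 bp of the 35-kb downstream site. The plot of added length by setting has the site over Ptx3 above the other 5 under every alternative drawn.

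**Figure D4:**
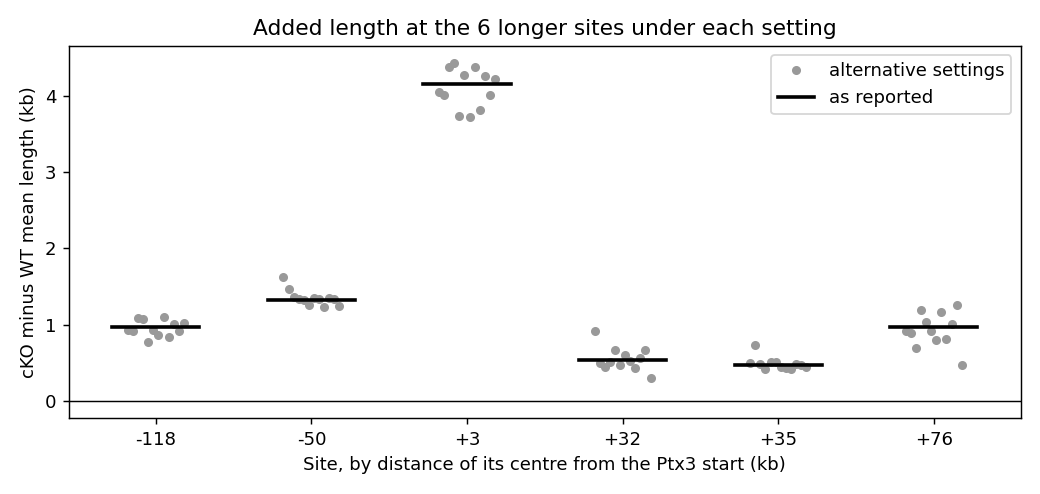
Difference in mean length, cKO minus WT, in kb at each of the 6 longer sites, as reported (bar) and under each of 12 alternative settings (points). All points lie above 0, and those of the site over Ptx3, at +3 kb, lie between 3719 and 4429 bp.

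Peak strength, as the authors' peak caller gave it, is comparable only as a rank within a list. Ranks were therefore taken in lists reduced to the 48168 strongest peaks each by −log10 p. By −log10 q, the peak at the Veph1 start ranked 9132, 10621 and 9368 in cKO and 22078, 22333 and 20767 in WT. All cKO ranks were higher up the list than all WT ranks. The peak over Ptx3 ranked 5577, 4445 and 7111 in cKO and 7981, 6408 and 11317 in WT, and these ranges overlapped. By length it ranked 538, 554 and 310 in cKO and 4134, 10202 and 7484 in WT. At Ptx3 the genotypes were thus apart in the length of the peak and not in its rank by −log10 q, while at the Veph1 start they were apart in both. The 50-kb upstream site ranked 17095, 15530 and 14613 by −log10 q in cKO, and 36769 and 37175 in WT replicates 1 and 3, with no peak left in WT replicate 2. The 118-kb upstream site ranked 3223, 5866 and 4684 in cKO and 4839, 7135 and 2406 in WT, which overlapped. By length it ranked 7025, 6709 and 3982 in cKO and 15260, 16114 and 14360 in WT. This site thus resembled the one over Ptx3 in being apart in length and not in −log10 q. The 32-kb downstream site ranked 20114, 19828 and 15191 by −log10 q in cKO and 30066, 37602 and 24526 in WT, apart without overlap. The 35-kb downstream site, low in the lists, ranked 28773, 41022 and 29247 in cKO and 41923 in WT replicate 3. It had no peak left in WT replicates 1 and 2. The ranks are from the same lists that chose the genes and are a description. Each peak has a single −log10 q for its whole extent. Whether that value depends on peak length was not tested, so the ranks may not measure strength apart from length.

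The nearest other protein-coding genes were Ccnl1, which the window cuts, Lekr1 beyond it and Shox2, a homeobox gene, on the far side. Over Ccnl1 the scaled length under peaks was 6759 ± 609 bp in cKO and 6209 ± 296 bp in WT (SD, n = 3 each; log2 change 0.11 ± 0.10, SE, limma adjusted p = 0.806). Lekr1 had 6305 ± 205 bp in cKO and 5993 ± 309 bp in WT (SD, n = 3 each; limma adjusted p = 0.887). The Shox2 window held 682 ± 31.6 bp in cKO and 648 ± 149 bp in WT (SD, n = 3 each), too little length under peaks to be fitted. Neither neighbour that was fitted passed, although a p that misses the threshold does not show equal lengths.

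The genes whose profile over the 6 libraries was nearest to that of Ptx3, by Euclidean distance of centred log2 covered length, were Ppp1r14c, Lsm6, Pex7, Pdzrn3 and Cfap77. Their distances were 0.597, 0.775, 0.797, 0.808 and 0.844, and their log2 changes 1.16, 0.78, 1.32, 0.72 and 0.65. Ppp1r14c encodes an inhibitory subunit of protein phosphatase 1, Lsm6 a U6 snRNP protein and Pex7 a receptor of peroxisomal import. Nearest to Veph1 were Pdzrn3, a PDZ-domain ubiquitin ligase gene, at 0.189, Gfm1 at 0.209, Filip1 at 0.26, Lxn at 0.28 and Wdr25 at 0.304. The gene of the carboxypeptidase inhibitor latexin, Lxn, lies inside Gfm1, a gene of mitochondrial translation, so these 2 share peaks. The log2 changes of the 5 genes in that order were 0.72, 0.67, 0.59, 0.79 and 0.57. Likeness over 6 libraries is a description of 3 cKO and 3 WT values per gene. The genes were picked by these same values, so the direction of change they share with Ptx3 and Veph1 follows from the choice.

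No other gene of the same families and pathways that was fitted passed the test. Of all genes fitted 0.28% passed, so none among so few is not read as a result about them. None of the 4 other pentraxin genes fitted passed (limma, Benjamini-Hochberg adjusted p below 0.05), and 1 had an unadjusted p under 0.05, as did 10.1% of all genes fitted, with a median log2 change of 0.05 against 0.03 over all genes fitted. That gene was Nptx2, a neuronal pentraxin of excitatory synapses, with 1802 ± 223 bp in cKO and 2290 ± 323 bp in WT (SD, n = 3 each; limma adjusted p = 0.468). The other neuronal pentraxin genes had log2 changes of 0.18 (Nptxr) and 0.03 (Nptx1), and Ptx4, a further long pentraxin, 0.06. Of the 10 genes of PTX3-binding proteins that were fitted, 0 passed and 0 had an unadjusted p under 0.05 (limma, median log2 change 0.06). They include Tnfaip6, whose product joins PTX3 in the hyaluronan matrix, with 3930 ± 583 bp in cKO and 3397 ± 161 bp in WT (SD, n = 3 each), and Itih2 of the inter-alpha-inhibitor (log2 change -0.16). The neighbouring complement genes C1qa and C1qb have overlapping windows and no peak within 2 kb in any library, so their values come from peaks elsewhere that they may share. C1qa had 1991, 0 and 233 bp in cKO and 1741, 1589 and 802 bp in WT after scaling, with a log2 change of -0.91 ± 0.45 (SE, limma), and that of C1qb was -0.58 ± 0.32. Of the 23 genes fitted from the pathways in which VEPH1 and Melted act, 0 passed and 4 had an unadjusted p under 0.05, against 10.1% of all genes fitted (limma, median log2 change -0.09). Smad3, a transducer of TGF-beta signals, had 7656 ± 246 bp in cKO and 5888 ± 585 bp in WT (SD, n = 3 each; limma adjusted p = 0.235). Wwtr1, a co-activator restrained by Lats kinases, had 11373 ± 357 bp in cKO and 14685 ± 1167 bp in WT (SD, n = 3 each; limma adjusted p = 0.251). The insulin receptor gene Insr had a log2 change of -0.26.

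PTX3 is also made by microglia and vascular cells, so markers of the other cell types in the lysate were set beside these values. Of 9 microglial genes, 4 to 5 had a peak within 2 kb of a gene end in the cKO libraries and 3 to 5 in the WT libraries, and Cx3cr1, Trem2, C1qa and Itgam had none in any library. Their summed scaled covered length was 12044 to 13752 bp in cKO and 14079 to 15471 bp in WT. Of 10 endothelial and pericyte genes, 3 to 5 had such a peak in cKO and 3 to 7 in WT, with summed lengths of 16865 to 18749 bp in cKO and 14389 to 22234 bp in WT, and Pecam1, Tie1 and Tek had none. Of 9 meningeal and fibroblast genes, 2 to 5 had one in cKO and 3 to 6 in WT, with summed lengths of 7905 to 8876 bp in cKO and 8874 to 12312 bp in WT. Of 5 astrocyte genes it was 3 to 4 in both genotypes, of 6 oligodendrocyte lineage genes 2 to 4 in both, and of 10 ventral forebrain and interneuron genes 8 in every library. Their part in the lengths at Ptx3 and Veph1 was not tested.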

How the data were processed

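Per the labels' protocols, native chromatin was cut by micrococcal nuclease, H3K27ac-bearing fragments were immunoprecipitated, and libraries had 11 PCR cycles. FastQC, cutadapt, Bowtie2 2.2.8 and MACS2 2.1.1 with mm10 are named in the submitters' processing notes; how they were set, and whether input was used, is not given in the sources used here. In each deposited broad peak list, every peak has its positions and, from the authors' peak caller, a score that was not used, a fold ratio, and −log10 p and q values. Of these, −log10 p served to cut lists to equal length, and −log10 q to rank peaks inside a list and for the stricter filter. With no counts deposited, depth and its precision are unknown.

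Peaks were merged into sites where they overlapped by at least 1 bp or touched. Covered length per gene was fitted with limma 3.58.1 in R 4.3.3, with the library identifier as covariate, as log2(scaled length + 500 bp) over genes with an unscaled mean of at least 1000 bp. Benjamini-Hochberg adjustment ran over all 15359 genes fitted. Scaling factors bring each library's summed length over all gene windows to the common mean. Other values were computed in Python 3.11.15 and figures drawn with matplotlib 3.10.9. Genes, starts and promoters came from RefSeq tables of GRCm38.p6, in which both members were matched; exons and introns were not used here. Of the gene lists, 1 of 17 PTX3 partners was not matched, and genes with too little length under peaks were not fitted. The members, lists and tests were chosen with earlier results of these data known. Named genes were the members, their neighbours, the 4 of each pathway list with the smallest p and the 5 nearest in profile, leaving out genes within 200 kb; 1 gene that this rule names is not reported here. Code was checked on simulated data.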

Additional observations from a re-analysis of the deposited data

How the results depend on the processing

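The log2 changes of both genes, the added length at each of the 6 longer sites and the share at Ptx3 kept their direction in all alternatives run. Leaving out 1 library at a time, the log2 change was 1.2 to 1.5 for Ptx3 and 0.69 to 0.83 for Veph1, the number of longer sites 6 to 8, the share of the Veph1 gain at Ptx3 39.5 to 49.7% and the list genes that passed 0 to 0. The log2 change of Ptx3 was 0.98 with a pseudocount of 2000 bp and 0.93 with the gene body plus 100 kb, and that of Veph1 was 0.51 with 100 kb and 0.88 within the second set of libraries; a larger constant and a wider window dilute a local difference by construction. Within the first set 10 sites were longer, and between the replicate 3 libraries, 1 of each genotype, 12 were longer and 5 shorter, since fewer libraries must be apart. While 0 of 22 sites were shorter in cKO as reported, 1 was shorter under the stricter q filter and 1 without WT replicate 1. The share at Ptx3 was 72.6% with 50 kb around Ptx3, a window that reaches the 50-kb, 32-kb and 35-kb sites. The 32-kb site overlapped between genotypes in equal-length lists and without scaling, and the 35-kb site with peaks of a −log10 q of at least 5. The other 4 longer sites stayed apart in all 12 alternatives run for them.

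All genes called numbered 43 (19 longer, 24 shorter), and 21 with the stricter q, 2 to 66 with a library left out (2 without cKO replicate 3, 66 without cKO replicate 2, and 8, 3 and 2 without WT replicates 1, 2 and 3), 1 without scaling (1 longer) or without the length filter, 13 without the covariate, 12 and 108 with pseudocounts of 100 and 2000 bp, 16 with quantile normalization (3 longer, 13 shorter), 2 within the first set, and 45 in equal-length lists (30 longer, 15 shorter). Scaling by all covered bases, an alternative chosen after seeing the data, gave 109 (57 longer, 52 shorter). Whether replicate numbers pair the samples is not known. Same-numbered deviations correlated at 0.13, 0.06 and 0.26, and differently numbered ones at -0.23 to 0.17. With 3 libraries per genotype these values cannot decide it. With the number as a replicate block, the log2 changes were 1.34 ± 0.13 for Ptx3 and 0.75 ± 0.11 for Veph1 (SE), and 64 genes were called. Depth is unknown, so what it limits could not be given.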
